A study of Mus musculus with 10 samples.

Results

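Oxidative phosphorylation, the machinery that turns electrons from nutrients into ATP in the inner mitochondrial membrane, was followed here at the RNA level in mouse lung. The genes were chosen by symbol alone, as protein-coding genes named Nduf, Uqcr, Atp5, Cox4 to Cox8, Sdha to Sdhd, mt-Nd, mt-Co, mt-Cytb or mt-Atp. This gave 106 of the 53465 genes listed, 93 in the nuclear genome and 13 in the mitochondrial genome. A further 13 symbols of the same form were left out as not protein-coding, 12 of them processed pseudogenes.

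The samples were 10 lung tissue libraries from BALB/c mice, 5 from controls and 5 from mice given IL-33 (IL33-treated), an alarmin cytokine released by damaged epithelium that drives type 2 inflammation. The treated mice received 1 µg of IL-33 in 35 µL through the nose on each of 5 days, and lungs were collected 24 hours after the last dose. The sources used here state neither age nor sex, nor whether controls received vehicle, so IL-33 and the instillation itself cannot be told apart. No genotype other than the strain is stated, nor whether each library is 1 mouse, so p-values measure only the spread between these 10 libraries, which may be technical. Bulk tissue also means that fewer cells of a type and less RNA per cell cannot be told apart.

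Complex I (NADH dehydrogenase) and complex II (succinate dehydrogenase) feed electrons to ubiquinone, complex III passes them to cytochrome c, complex IV (cytochrome c oxidase) hands them to oxygen, and complex V (ATP synthase) uses the resulting proton gradient to make ATP. Membrane subunits of the proton pump of complex I, the cytochrome b of complex III, the largest subunits of complex IV and a part of the proton channel of complex V are encoded in mitochondrial DNA, which is transcribed as long RNAs from both strands and cut into single messengers, while all other subunits, complex II included, are encoded in the nucleus and imported. Several complex IV subunits come as isoforms from separate genes, one found in most tissues and the other in heart and skeletal muscle, in lung or in testis.

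Most nuclear-encoded genes, 8 assembly factors of complex I included, were higher after IL-33 before a correction for transcript length and GC content given below. With that correction 45 were called higher and 14 lower. Of the 93 nuclear genes, 91 passed the filter on low counts, and without the correction 80 of these were called higher, 4 lower and 7 neither way (edgeR quasi-likelihood test, Benjamini-Hochberg adjusted p below 0.05 over all 15695 genes tested, of which 69.9% were called). The remaining 2, Cox7b2 and Cox8c, had no read in any library. Over all genes tested, 35.1% were called higher and 34.8% lower. In 75 of the 91 every IL-33 library was above every control, against 28.5% of all genes tested, and in 1 every IL-33 library was below every control, against 27.6%. The median log2 fold change, IL-33 over control, was 0.93 for the nuclear genes, from -1.26 to 1.76, and -0.01 over all genes tested. A gene called here passed the test, and levels are counts scaled to all reads counted in genes (CPM), given as mean ± SD of 5 libraries or library by library in the order 1 to 5, while ± beside a log2 fold change is its SE.

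Summed over the 93 nuclear genes, the level was 5715, 5673, 5236, 4880 and 5565 CPM in the controls and 10444, 10619, 9943, 9106 and 8264 CPM in the IL-33 libraries. The groups did not overlap, and the mean rose 1.79-fold, from 5414 ± 353 to 9675 ± 984 CPM. The 13 mitochondrial genes summed to 22683, 22551, 26678, 20532 and 22130 CPM in controls and to 21731, 20637, 23192, 23758 and 23784 CPM after IL-33. These groups overlapped, with a ratio of means of 0.987. The mitochondrial sum was 3.97 to 5.1 times the nuclear sum in controls and 1.94 to 2.88 times after IL-33. The mitochondrial sums hold at most 1 read of the 6 genes listed at or near 0, so the ratios describe what was counted and not the RNA of the whole mitochondrial genome.

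**Figure D1:**
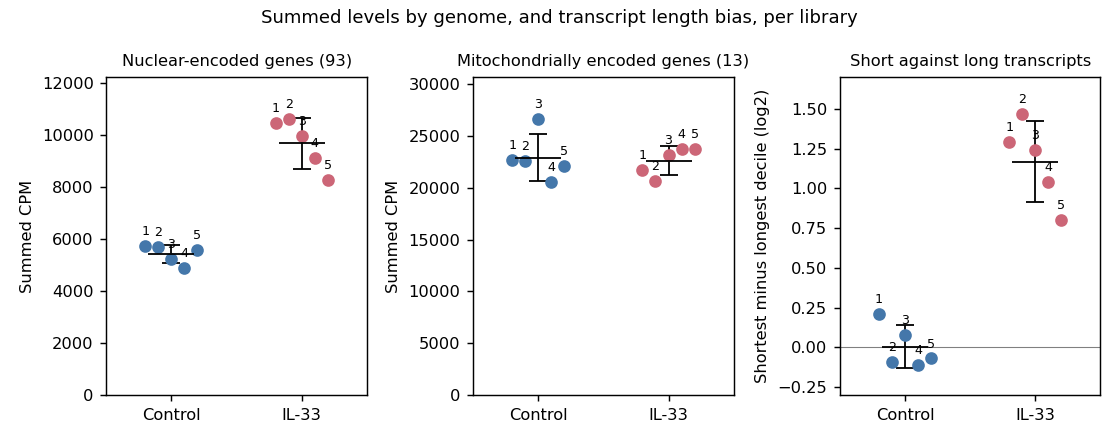
Summed level of the 93 nuclear and the 13 mitochondrial genes in each library (CPM, left and middle), and the median log2 level of the shortest decile of all genes minus that of the longest decile, relative to the mean of controls (right). Points are libraries numbered by replicate, and bars are mean ± SD of 5. Nuclear sums separate the groups, mitochondrial sums overlap, and the right panel separates the groups from -0.11 to 0.21 in controls and from 0.80 to 1.47 after IL-33.

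Transcript length moved with the same contrast, and oxidative phosphorylation subunits are short. Their median transcript length was 781 bases over the 91 nuclear genes tested and 2736 over all genes with a length. Over 15680 genes the Spearman correlation of log2 fold change with transcript length was -0.38, and over the 91 nuclear genes it was -0.43. These are descriptions across genes, which share the same 10 libraries and are not independent. In deciles of all genes by length, the median log2 fold change went from 0.79 in the shortest to -0.37 in the longest. The 59 nuclear genes in the shortest decile had a median of 1.05, the 16 in the next decile 0.80 against 0.42 for all genes there, and the 9 in the following decile 0.66 against 0.20.

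When the trend on transcript length and GC content was removed from each library, 45 of the nuclear genes were called higher and 14 lower, beside 29% of all genes higher and 38.5% lower. Their median log2 fold change was then 0.19, against -0.09 over all genes. Of the calls made without the correction on genes of either genome, 51 of 90 kept their direction and significance, 9 were called in the opposite direction and the rest were not called. The difference between the shortest and longest deciles was 1.29, 1.47, 1.24, 1.04 and 0.80 log2 units in the IL-33 libraries and -0.11 to 0.21 in controls. IL-33 library 5, with the smallest difference, also had the lowest nuclear sum of its group, and library 2, with the largest, had the highest. The part of length or of RNA quality in these results was not tested beyond this correction.

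**Figure D2:**
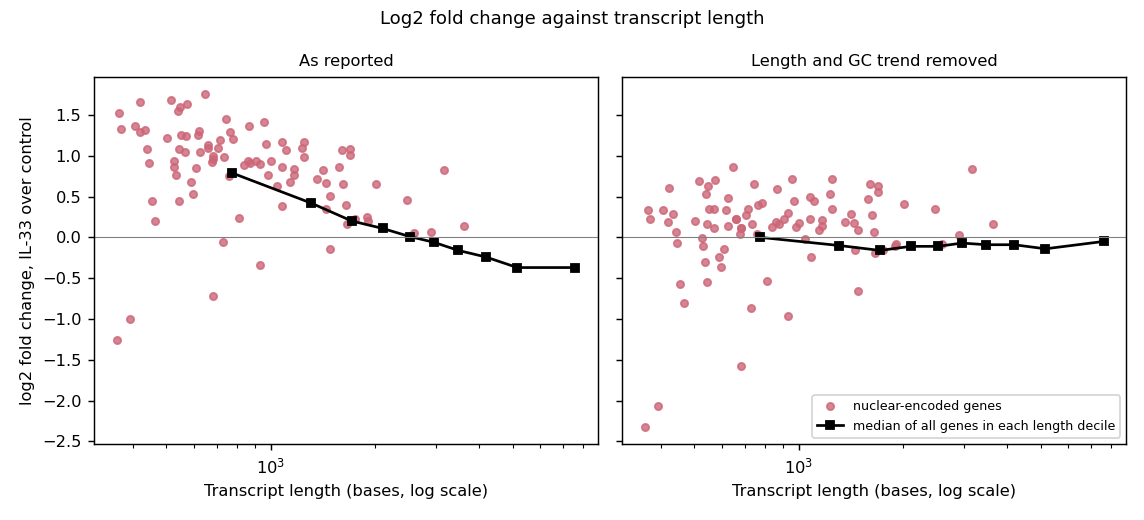
Log2 fold change (IL-33 over control) against transcript length in bases (log scale) for the 91 nuclear genes tested, as reported (left) and after removal of the trend on length and GC content (right). Red points are genes, and black squares join the medians of all genes in length deciles. Most red points lie above the black line on the left, and their median falls from 0.93 to 0.19 on the right.

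Other gene families gave a scale for this, although their transcript lengths were not compared here. Of the 79 tested genes of the cytosolic ribosome 78 were called higher, with a median of 1.48 on the log2 scale. The mitochondrial ribosome had 67 of 77 called higher and a median of 0.70, and the constitutive proteasome 30 of 35 and 0.62. With the trend removed their medians were 0.61, 0.16 and 0.13, beside 0.19 for the nuclear oxidative phosphorylation genes.

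**Figure D3:**
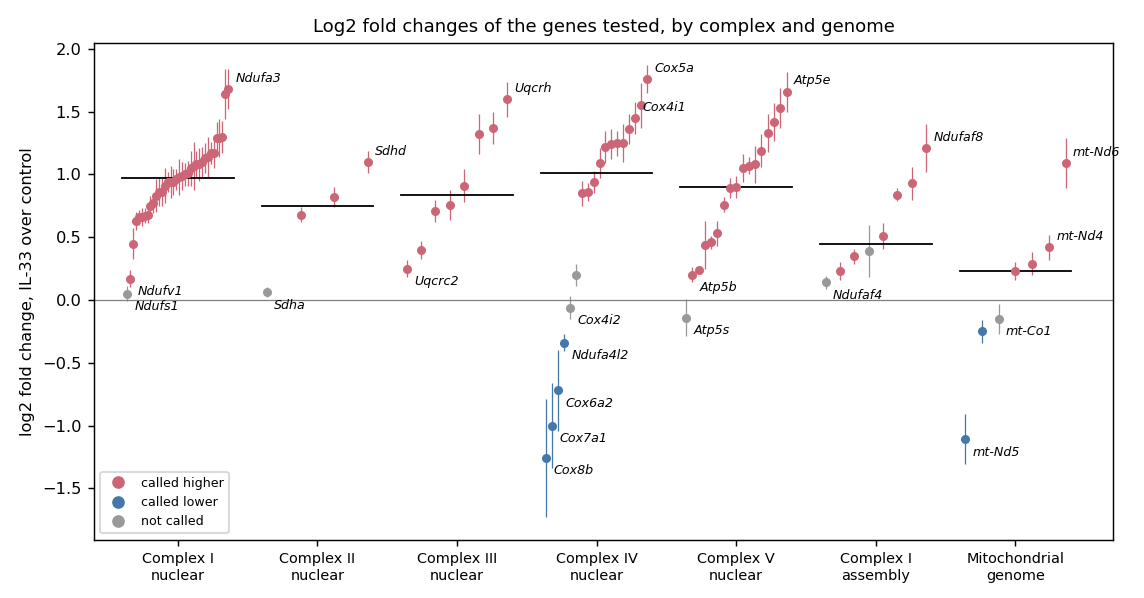
Log2 fold change ± SE of each gene tested, by complex and genome, in order of size within each column. Colours give the call at adjusted p below 0.05, and black lines are column medians. The nuclear columns lie mostly above 0, with muscle-type complex IV subunits down to -1.26, while the 7 mitochondrial genes lie on both sides of 0.

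Complex I, the largest complex, had 36 nuclear genes here, and 35 were called higher. All 29 accessory subunits, which surround and stabilise the catalytic core, were called higher, with a median log2 fold change of 1.00 and a range that began at 0.45. Of the 7 core subunits, which carry the flavin and the iron-sulfur clusters, 6 were called higher, with a median of 0.66. Summed levels went from 1039 ± 67.9 to 2109 ± 300 CPM for accessory and from 442 ± 25.3 to 655 ± 52 CPM for core subunits. With the trend on length and GC removed, 18 accessory and 2 core genes were called higher and 2 accessory and 1 core gene lower.

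Ndufa3, an accessory subunit of the membrane arm (ENSMUSG00000035674, chr7:3617373-3620327), rose most among complex I genes. Its level was 48.1, 45.1, 45.6, 35.6 and 45.1 CPM in controls and 151, 168, 153, 121 and 97.3 CPM after IL-33. The groups were well apart, 3.14-fold in means, with a log2 fold change of 1.68 ± 0.16 (adjusted p = 4.88e-07) and 0.69 after correction. Ndufa2, an accessory subunit of the matrix arm, read 33.3, 34.5, 25.1, 26.2 and 31.9 CPM in controls and 117, 103, 102, 82.2 and 59 CPM after IL-33. It rose by 1.64 ± 0.20 on the log2 scale (adjusted p = 2.44e-06). Ndufb7 of the membrane arm rose from 40.8 ± 3.1 to 98.9 ± 17.3 CPM (log2 1.30 ± 0.13, adjusted p = 9.25e-07). IL-33 library 5 was the lowest of its group for all 3 genes and still above every control.

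Per kilobase of the principal transcript, Ndufa3 and Ndufa7 were the most abundant nuclear complex I genes by the mean of all 10 libraries, but not in each group, since Ndufa6 lay between them in controls and Ndufa1 after IL-33. Ndufa3 averaged 85.2 CPM per kilobase in controls and 268 after IL-33, and Ndufa7 91.3 and 163. Ndufa7, an accessory subunit of the matrix arm, rose from 48.2 ± 4.14 to 86.2 ± 12.6 CPM (log2 0.86 ± 0.11, adjusted p = 1.35e-05). Its corrected log2 fold change was -0.10 and was not called.

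Ndufs1, the largest iron-sulfur core subunit, was the only complex I gene not called, and it was named after its values were seen. Its level was 82, 85.1, 78.7, 73.2 and 93.6 CPM in controls and 86.8, 86.6, 83.1, 83.3 and 80.8 CPM after IL-33, overlapping, with a log2 fold change of 0.05 ± 0.06 (adjusted p = 0.542). Ndufv1, the flavin-binding core subunit, was also named after its values were seen. It read 72.3, 72.2, 63.5, 62.1 and 71.3 CPM in controls and 80.3, 77.5, 67.8, 79.1 and 72.8 CPM after IL-33. Its log2 fold change of 0.17 ± 0.07 passed narrowly (adjusted p = 0.0491), the call was lost without any of control libraries 1 to 5 or IL-33 libraries 1, 2 or 4, and after the length and GC correction the gene was called lower at -0.19.

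The 8 assembly factors named Ndufaf build complex I and are not part of it. Of these, 6 were called higher, with a median of 0.45, and 1 remained called after the correction. Ndufaf8 read 9.88, 6.82, 5.82, 6.56 and 7 CPM in controls and 21.6, 16.4, 17.6, 15.4 and 12 CPM after IL-33. Control library 1 was the highest of its group and still below every IL-33 library, and the log2 fold change was 1.21 ± 0.19 (adjusted p = 4.43e-05). Ndufaf2, a chaperone of late assembly, rose by 0.93 ± 0.13 (adjusted p = 9.08e-05). Of its exonic bases 65.6% lie opposite another gene, so its level is uncertain. Of its 75-base windows 63.2% occur in another annotated gene, most often one that overlaps it at the same place. Ndufaf5, a hydroxylase of a core subunit, rose from 6.29 ± 0.458 to 11.1 ± 0.241 CPM (log2 0.84 ± 0.05, adjusted p = 6.46e-06). Ndufaf4 and Ndufaf6 were not called, at log2 fold changes of 0.14 ± 0.05 and 0.39 ± 0.21 (adjusted p = 0.104 and 0.101), but Ndufaf6 was called at 0.50 without control library 3.

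Complex II, which also runs as a step of the citric acid cycle, split between its large flavoprotein and the rest. Sdha, the flavin-binding subunit that oxidises succinate (ENSMUSG00000021577, chr13:74322254-74350280), read 196, 207, 191, 189 and 205 CPM in controls and 203, 197, 196, 197 and 220 CPM after IL-33. The groups overlapped, and the log2 fold change of 0.06 ± 0.04 was not called (adjusted p = 0.377). Sdhb, the iron-sulfur subunit, read 68.4, 69.3, 59.5, 58.8 and 67.7 CPM and then 109, 101, 103, 97.5 and 99.2 CPM, a log2 fold change of 0.68 ± 0.06 (adjusted p = 1.51e-06). Sdhc and Sdhd anchor the complex in the membrane and bind ubiquinone. Sdhc read 82.7, 81.6, 73.5, 66.2 and 69.4 CPM in controls and 140, 137, 128, 121 and 122 CPM after IL-33, a log2 fold change of 0.82 ± 0.08 (adjusted p = 1.44e-06). Sdhd read 61.3, 61.1, 45.9, 52.6 and 56.3 CPM in controls and 127, 121, 122, 112 and 106 CPM after IL-33 and rose most, by 1.10 ± 0.09 on the log2 scale (adjusted p = 2.28e-07).

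In Sdhb, Sdhc and Sdhd every IL-33 library was above every control. Transcript lengths were 2900, 1142, 3171 and 1231 bases for Sdha to Sdhd. Sdhc, the longest of them, kept its log2 fold change in the corrected fit, at 0.84 (adjusted p = 1.9e-06). Sdhd was at 0.53 (adjusted p = 3.16e-05), while Sdhb at 0.09 and Sdha at 0.03 were not called. Which of the 4 differ from each other was not tested.

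Complex III had 8 nuclear genes and all were called higher, with a median log2 fold change of 0.83. Uqcrh, the hinge protein beside cytochrome c1, rose most (ENSMUSG00000063882, chr4:116066965-116075071). It read 84, 86.2, 73.5, 70.1 and 85.9 CPM in controls and 259, 278, 264, 213 and 173 CPM after IL-33, 2.97-fold in means and 1.6 ± 0.14 on the log2 scale (adjusted p = 2.85e-07). The small subunit Uqcrq rose from 36.7 ± 3 to 93.3 ± 15.8 CPM (log2 1.37 ± 0.13, adjusted p = 5.67e-07). Uqcr10, another small subunit, rose from 36.3 ± 5.79 to 89.3 ± 14.5 CPM (log2 1.32 ± 0.16, adjusted p = 1.95e-06). Uqcrh and Uqcrq were also the most abundant per kilobase by the mean of all 10 libraries, although Uqcrb and Uqcr11 were above Uqcrq in controls, at 146 and 90.7 CPM per kilobase in controls and 435 and 230 after IL-33.

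The 2 large core proteins of complex III had the smallest log2 fold changes of the complex as reported and were named after their values were seen. Uqcrc1 rose from 104 ± 8.68 to 135 ± 8.06 CPM (log2 0.40 ± 0.07, adjusted p = 0.000228). Uqcrc2 was 99.6 ± 9.64 and 116 ± 5.55 CPM, with overlapping groups and a log2 fold change of 0.25 ± 0.07 (adjusted p = 0.00737). In the corrected fit 4 of the 8 were called higher, Uqcrh at 0.63 among them, and 1 lower.

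Complex IV held both the largest rise and all 4 falls called among nuclear genes. Of its 20 nuclear genes 18 were tested, and 12 were called higher and 4 lower. The summed level went from 1049 ± 70.4 to 2285 ± 335 CPM, 2.18-fold. Ndufa4, once counted as complex I and now placed in complex IV, and its relative Ndufa4l2 are included here.

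Cox5a, a matrix-side subunit (ENSMUSG00000000088, chr9:57521274-57532426), had the largest log2 fold change of all 106 genes, 1.76 ± 0.11 (adjusted p = 2.54e-08). It read 49, 52.2, 42, 41 and 51.7 CPM in controls and 169, 173, 171, 140 and 134 CPM after IL-33, 3.33-fold in means. Cox7c, a small membrane subunit, read 46.3, 47, 38.9, 42.9 and 45.3 CPM and then 149, 150, 146, 107 and 81.6 CPM, a log2 fold change of 1.55 ± 0.18 (adjusted p = 2.25e-06). All libraries of both genes separated by group, IL-33 library 5 being the nearest to the controls. Cox6c, like Cox4i1 among the most abundant per kilobase, averaged 199 CPM per kilobase in controls and 456 after IL-33. Its log2 fold change was 1.22 ± 0.13 (adjusted p = 1.78e-06).

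The common isoforms rose and their tissue-restricted partners did not. Cox4i1, the ubiquitous subunit 4, read 178, 161, 155, 139 and 164 CPM in controls and 468, 492, 480, 384 and 321 CPM after IL-33, a log2 fold change of 1.45 ± 0.13 (adjusted p = 4.11e-07). Cox4i2, the subunit 4 isoform best known in lung, where it takes part in oxygen sensing, read 45.9, 36.5, 44, 44.7 and 43.6 CPM and then 43.6, 43, 45.1, 36 and 35.7 CPM. Those groups overlapped, and the log2 fold change of -0.06 ± 0.09 was not called (adjusted p = 0.592). In the corrected fit Cox4i2 was called lower, at -0.86 (adjusted p = 1.55e-06), and Cox4i1 higher, at 0.66.

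The 3 isoforms of heart and skeletal muscle were called lower. Cox6a2 read 16.1, 23, 20.8, 10.7 and 24 CPM in controls and 6.83, 16.4, 8.2, 14.7 and 10 CPM after IL-33, a log2 fold change of -0.72 ± 0.32 (adjusted p = 0.0235). Cox7a1 read 7.26, 15.7, 7.39, 4.72 and 14.1 CPM and then 3.75, 5.23, 6.15, 4.89 and 4.17 CPM and fell by 1.00 ± 0.34 on the log2 scale (adjusted p = 0.0089). Cox8b read 3.63, 7.25, 5.26, 1.75 and 5.56 CPM and then 0.77, 2, 1.54, 3.31 and 1.75 CPM, a log2 fold change of -1.26 ± 0.47 (adjusted p = 0.01). In each the groups overlapped, and controls 2 and 5 were above every IL-33 library while control 4 was the lowest control. The call of Cox6a2 was lost without control library 2 or 5 or IL-33 library 1, 3 or 5, when its log2 fold change was -0.67 to -0.59.

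Heart muscle markers were lower as well. The 13 cardiac muscle genes summed to 1081, 2445, 1115, 616 and 2069 CPM in controls and to 220, 659, 446, 628 and 464 CPM after IL-33, so controls 2 and 5 were highest and control 4 lowest, as for the 3 isoforms, while the order of the IL-33 libraries differed from gene to gene. Of the 13, 9 were called lower and none higher, beside 34.8% and 35.1% of all genes tested. Myh6, the cardiac alpha myosin heavy chain, averaged 653 CPM in controls and 133 CPM after IL-33. The 7 skeletal muscle genes summed to 23.4 to 75.7 CPM in controls and 8.08 to 24.5 CPM after IL-33, with Myh4 at 0 and 4 of the 7 tested. How much of the fall of Cox6a2, Cox7a1 and Cox8b follows the amount of muscle in each sample was not tested.

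Their common partners rose in every case. Cox6a1 read 107, 96, 102, 97.8 and 100 CPM in controls and 273, 267, 238, 205 and 181 CPM after IL-33, a log2 fold change of 1.24 ± 0.12 (adjusted p = 8.48e-07). Cox7a2 rose by 1.09 ± 0.12 (adjusted p = 1.71e-06) and Cox8a by 1.25 ± 0.10 (adjusted p = 2.16e-07). Cox7a2l, a relative that helps complexes III and IV join into supercomplexes, rose by 0.86 ± 0.07 (adjusted p = 5.47e-07), and Cox7b by 0.94 ± 0.09 (adjusted p = 8.68e-07). The pair Cox6b1 and Cox6b2 split too. Cox6b1 rose by 1.25 ± 0.15 (adjusted p = 2.93e-06), while its testis-type relative Cox6b2 was at 12.1 ± 1.37 and 13.8 ± 1.21 CPM and was not called (log2 0.20 ± 0.09, adjusted p = 0.114). The partners in each pair share the same libraries, and the difference between them was not tested.

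Ndufa4 read 93, 93, 84.5, 74.8 and 85.8 CPM in controls and 173, 166, 154, 145 and 126 CPM after IL-33, a log2 fold change of 0.85 ± 0.10 (adjusted p = 5.24e-06). Ndufa4l2, which is known to be induced by low oxygen, read 21.7, 17.9, 22.2, 23.1 and 21.5 CPM in controls and 17.2, 17.1, 17.3, 15.6 and 15.9 CPM after IL-33. Every IL-33 library was below every control, and the log2 fold change was -0.34 ± 0.07 (adjusted p = 0.00441). Ndufa4l2 and Cox4i2 are also expressed by pericytes and smooth muscle. The 12 markers of those cells fell in 9 and rose in 2 of 12 cases, beside 34.8% and 35.1% of all genes tested. They summed to 1710 to 2010 CPM in controls and 1460 to 1575 CPM after IL-33. The part of those cells in the fall of Ndufa4l2 was not tested. With length and GC corrected, Ndufa4l2 was at -0.97 and Ndufa4, no longer called, at -0.14.

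**Figure D4:**
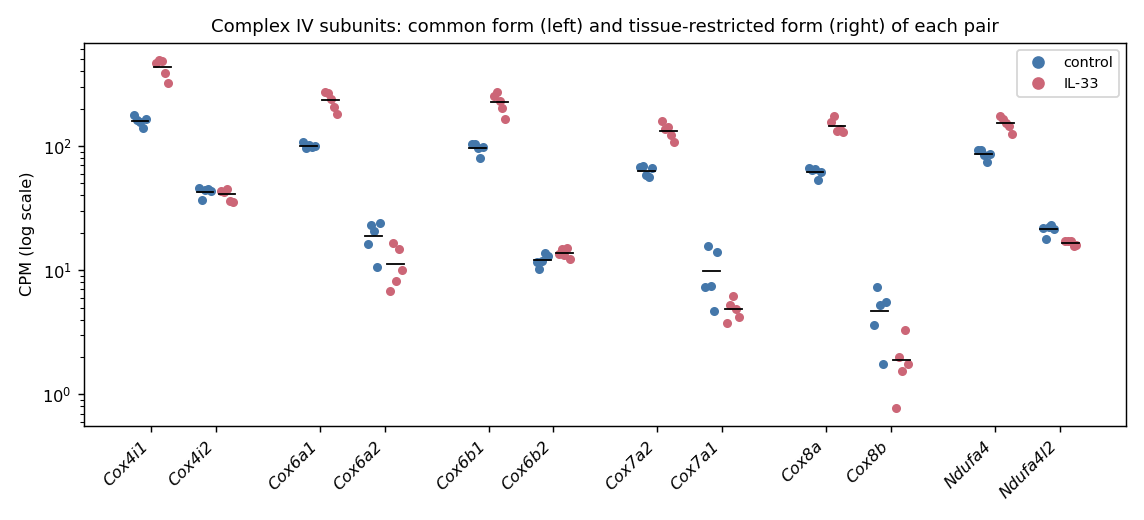
Level of complex IV isoform pairs in each library (CPM, log scale), the common form on the left and the tissue-restricted form on the right of each pair. Points are libraries and black bars are means of 5. Each common form separates the groups upward, while Cox6a2, Cox7a1, Cox8b and Ndufa4l2 are lower after IL-33, only Ndufa4l2 without overlap.

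Complex V had 16 of 17 nuclear genes called higher, with a median log2 fold change of 0.90. The 3 largest rises were in small subunits, although other small subunits were among the smallest rises. Atp5e, the epsilon subunit of the central stalk, read 60.7, 51.6, 38.1, 50.9 and 49.9 CPM in controls and 188, 160, 170, 147 and 116 CPM after IL-33, a log2 fold change of 1.66 ± 0.16 (adjusted p = 3.67e-07). Atp5mpl, a small proteolipid of the membrane part, rose from 34.4 ± 4.54 to 97.7 ± 18.1 CPM (log2 1.53 ± 0.16, adjusted p = 7.09e-07). Atp5j2, the f subunit, rose from 35.8 ± 4.06 to 94.2 ± 18.9 CPM (log2 1.42 ± 0.15, adjusted p = 1.3e-06). In all 3 the groups did not overlap.

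The catalytic head is made of the alpha and beta subunits. Atp5b, the beta subunit that makes ATP, read 524, 558, 519, 462 and 558 CPM in controls and 594, 613, 540, 597 and 615 CPM after IL-33. Its groups overlapped through IL-33 library 3, and the log2 fold change of 0.20 ± 0.06 passed (adjusted p = 0.0271) but was lost without control library 1 or 4 or IL-33 library 1. Atp5a1, the alpha subunit, named after its values were seen, rose from 461 ± 31.1 to 625 ± 10.8 CPM (log2 0.46 ± 0.05, adjusted p = 3.82e-05). Atp5b and Atp5h were the most abundant complex V genes per kilobase by the mean of all 10 libraries, but Atp5a1 was above Atp5h in controls and Atp5e was the highest after IL-33. Atp5b averaged 274 CPM per kilobase in controls and 309 after IL-33, and Atp5h, the d subunit of the side stalk, 164 and 333.

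Atp5h rose by 1.05 ± 0.11 on the log2 scale (adjusted p = 2.26e-06). Atp5s, a coupling factor, was the complex V gene not called, at 9.15 ± 1.35 and 8.19 ± 1.38 CPM (log2 -0.14 ± 0.15, adjusted p = 0.399). In the corrected fit 7 complex V genes were called higher, Atp5a1 at 0.35 and Atp5e at 0.61 among them, and 4 lower, Atp5s at -0.66 among them. Atpif1, which inhibits the enzyme when it runs backwards and lies outside the symbol rule, rose from 51.8 ± 6.65 to 137 ± 29.4 CPM (log2 1.43 ± 0.16, adjusted p = 2.43e-06).

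Promoters of the nuclear genes were read because most of these genes moved together. RefSeq windows of 300 bases, 250 before and 50 after the annotated start (GRCm38.p6), matched 76 of the 93 nuclear genes with 81 windows. Motifs were searched as exact letters on both strands. The windows shown are those of the complex I and III genes with the largest rise, of a common complex IV isoform and of a muscle-type one, with each match in capitals.
Ndufa3, chr7:3617123-3617422, plus strand, with 1 YY1 match: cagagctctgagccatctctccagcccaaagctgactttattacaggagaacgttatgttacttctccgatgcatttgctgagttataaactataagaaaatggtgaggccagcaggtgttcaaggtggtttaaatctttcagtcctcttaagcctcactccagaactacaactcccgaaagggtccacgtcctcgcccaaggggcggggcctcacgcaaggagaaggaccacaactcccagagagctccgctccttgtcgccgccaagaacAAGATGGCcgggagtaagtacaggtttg
Uqcrh, chr4:116075021-116075320, minus strand, with 1 ETS match: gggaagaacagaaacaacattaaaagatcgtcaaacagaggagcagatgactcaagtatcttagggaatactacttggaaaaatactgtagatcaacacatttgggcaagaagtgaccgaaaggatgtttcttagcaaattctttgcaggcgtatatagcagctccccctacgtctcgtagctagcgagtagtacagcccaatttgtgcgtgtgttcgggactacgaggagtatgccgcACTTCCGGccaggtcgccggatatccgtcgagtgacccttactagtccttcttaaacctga
Cox6a1, chr5:115348909-115349208, minus strand, with the NRF1 letters on both strands: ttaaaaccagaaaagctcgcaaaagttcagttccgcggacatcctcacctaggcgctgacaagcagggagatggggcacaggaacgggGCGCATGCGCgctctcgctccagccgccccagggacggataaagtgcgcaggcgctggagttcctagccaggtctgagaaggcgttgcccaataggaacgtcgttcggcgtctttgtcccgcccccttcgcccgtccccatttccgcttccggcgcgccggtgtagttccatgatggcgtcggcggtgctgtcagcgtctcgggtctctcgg
Cox7a1, chr7:30183921-30184220, plus strand, with no match: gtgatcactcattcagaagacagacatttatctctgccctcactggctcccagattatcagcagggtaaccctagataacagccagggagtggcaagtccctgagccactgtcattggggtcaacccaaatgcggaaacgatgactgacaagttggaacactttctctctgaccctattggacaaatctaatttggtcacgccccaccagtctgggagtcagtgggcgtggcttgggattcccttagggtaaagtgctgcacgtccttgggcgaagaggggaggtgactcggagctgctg

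The NRF1 letters GCATGCGC, of a factor known for activating respiratory genes, occurred in 12 of the 81 windows (14.8%) and in 2.71% of all 32851 windows. YY1 letters AAGATGGC occurred in 11 (13.6%) against 2.75%. The ETS letters CCGGAAGT, bound by GABPA among others, occurred in 5 (6.17%) against 3.89%, and the ERR letters TCAAGGTCA in 2 (2.47%) against 0.423%. Any of the NRF1, YY1 or ETS letters occurred in 27 of the 81 windows (33.3%) and in 8.83% of all windows. The windows printed above are examples, and those of Cox5a and Cox7a2, both called higher, held no match. No matches of different motifs overlapped in these 81 windows. The 74 windows of genes called higher are most of these 81, so their shares, 14.9% for NRF1 and 14.9% for YY1, could hardly differ. Windows of genes not called higher were too few to compare. A match is a description of letters and not a bound site.

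As reported, genes of the mitochondrial genome moved in both directions. Of its 13 protein-coding genes 7 were tested, and 4 were called higher, 2 lower and mt-Co1 neither way, with a median log2 fold change of 0.23. Apart from mt-Nd5 and mt-Nd6, their log2 fold changes lay between -0.25 and 0.42. Over all genes tested 69.9% were called, 35.1% higher and 34.8% lower. After the length and GC correction none of the 7 was called higher and 5 were called lower, beside 29% and 38.5% of all genes. The other 6 of the 13 were listed at or near 0 in every library.

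mt-Nd1, mt-Nd2, mt-Nd4, mt-Nd5 and mt-Nd6 encode membrane subunits of the proton pump of complex I. mt-Nd5 (ENSMUSG00000064367, chrM:11742-13565) read 2371, 2328, 2660, 2399 and 2432 CPM in controls and 965, 739, 1023, 1212 and 1664 CPM after IL-33. The groups were far apart, 0.46-fold in means, with a log2 fold change of -1.11 ± 0.20 (adjusted p = 4.3e-05). mt-Nd6 (ENSMUSG00000064368, chrM:13552-14070) read 65.4, 66.6, 55.2, 65.2 and 66.5 CPM in controls and 159, 140, 180, 100 and 88.2 CPM after IL-33, a log2 fold change of 1.09 ± 0.20 (adjusted p = 0.000106). mt-Nd6 is the only protein-coding gene on the other strand. It lies opposite the end of the unit that holds mt-Nd5, and the sources used here do not state the strand setting of the counting, so reads of the 2 strands may be mixed in its count.

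In both genes IL-33 libraries 4 and 5 were the closest to the controls, and these libraries also had the smallest difference between short and long transcripts. Corrected for length and GC, mt-Nd5 was at -1.50 (adjusted p = 1.23e-05) and mt-Nd6 at 0.00 (adjusted p = 0.979). The tested mitochondrial genes have a GC content of 34.1% to 39.9%, and 4.82% of all genes tested have a GC content at or below the highest of these, so the correction rests on few genes there. With transcript length alone removed, the median of the 7 genes was -0.40, and with length and GC removed -0.50.

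mt-Nd4 read 2476, 2520, 3011, 2256 and 2460 CPM in controls and 3314, 3607, 3654, 3322 and 2812 CPM after IL-33, a log2 fold change of 0.42 ± 0.10 (adjusted p = 0.0041). mt-Nd1 read 3201, 2894, 3704, 2715 and 2837 CPM and then 3964, 3322, 3930, 3577 and 3653 CPM, a log2 fold change of 0.29 ± 0.09 (adjusted p = 0.0259). mt-Nd2 read 2858, 2624, 3407, 2510 and 2674 CPM and then 2389, 2003, 2458, 2404 and 2414 CPM, a log2 fold change of -0.25 ± 0.09 (adjusted p = 0.0394). The groups overlapped for mt-Nd1 and mt-Nd4, in each through control library 3, and not for mt-Nd2. The call of mt-Nd1 was lost without control library 2, 4 or 5 or IL-33 library 1 or 3 (0.24 to 0.26), and that of mt-Nd2 without control library 3 or IL-33 library 1, 2, 3 or 4 (-0.27 to -0.18).

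mt-Cytb, the cytochrome b of complex III, read 4789, 4780, 5798, 4402 and 4692 CPM in controls and 5426, 5468, 5870, 6026 and 5584 CPM after IL-33. Control library 3 lay among the IL-33 libraries, and the log2 fold change of 0.23 ± 0.07 (adjusted p = 0.0454) was not called without control library 1, 2, 4 or 5, without IL-33 library 1, 3 or 4, or with library size alone as scaling. mt-Co1, the catalytic subunit of complex IV, read 6923, 7338, 8042, 6184 and 6967 CPM in controls and 5515, 5357, 6078, 7117 and 7569 CPM after IL-33. These groups overlapped widely, with a log2 fold change of -0.15 ± 0.12 (adjusted p = 0.267). Corrected in the same way, mt-Nd1, mt-Nd2, mt-Nd5, mt-Cytb and mt-Co1 were called lower and none higher.

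The 6 remaining genes lie next to each other, and 5 of them are nearly identical to nuclear copies. mt-Nd3, mt-Nd4l, mt-Co2, mt-Co3 and mt-Atp8 were listed at 0 in all 10 libraries and mt-Atp6 had 1 read in IL-33 library 3. Chromosome 1 holds 7 annotated unprocessed pseudogenes copied from this stretch of the mitochondrial genome, within chr1:24611535-24616197 (GRCm38, 4663 bases). Of the 75-base windows of mt-Co2, mt-Co3, mt-Atp6, mt-Nd3 and mt-Nd4l, 97.8% to 99.9% occur unaltered in another annotated transcript, in each case the one of its copy on chromosome 1. For mt-Nd4 the share was 61.5% and for mt-Co1 39.8%, and it was 0 for mt-Nd1, mt-Nd6 and mt-Cytb. mt-Nd2 had 5.71% and mt-Nd5 1.66% in other pseudogenes.

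One 75-base window from each of 2 of these genes shows the letters that the mitochondrial gene and its nuclear copy have in common, and the overlap of the ATP synthase pair follows.
mt-Co2, chrM:7317-7391, also in Gm28661: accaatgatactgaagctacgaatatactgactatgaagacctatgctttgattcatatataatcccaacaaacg
mt-Co3, chrM:8961-9035, also in Gm28437: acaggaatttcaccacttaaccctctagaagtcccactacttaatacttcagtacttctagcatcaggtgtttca
mt-Atp8 and mt-Atp6, chrM:7927-7969, the 43 bases they share: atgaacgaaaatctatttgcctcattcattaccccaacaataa

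mt-Atp8 had no window in an annotated transcript, and 21.1% of its bases lie in another gene of the same strand, in the overlap with mt-Atp6. On chromosome 1 the copies of mt-Co2 and mt-Atp6 leave bases between them that carry no annotated gene, and that sequence was not analysed here. The copies themselves held few reads, from 4 to 108 over the 5 controls and 3 to 131 over the 5 IL-33 libraries. Reads aligned to more than 1 place made up 15% to 16.2% of records in controls and 20% to 22.8% after IL-33, and are in no gene's count. Counts of mt-Nd4 and mt-Co1 may for this reason be too low, and mt-Co2, mt-Co3, mt-Atp6, mt-Atp8, mt-Nd3 and mt-Nd4l could not be compared.

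**Figure D5:**
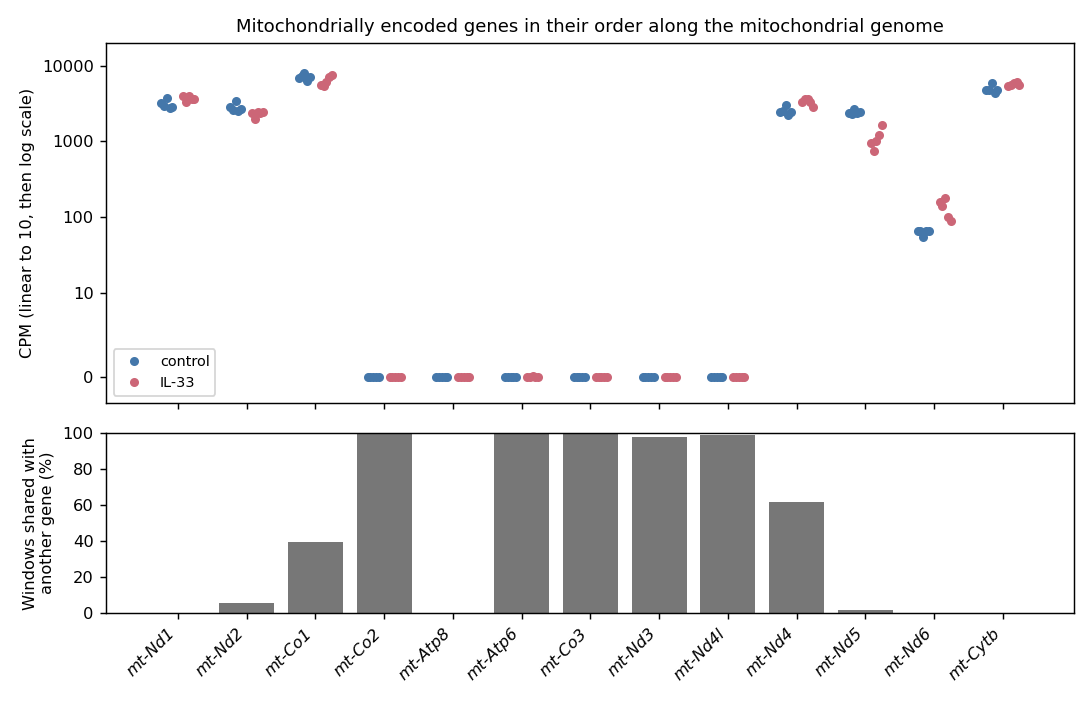
Level of the 13 mitochondrial genes in each library (CPM, linear to 10 and then a log scale) in their order along the genome, and below it the percent of each gene's 75-base windows that occur in another annotated transcript. Points are libraries of the 2 groups. The 6 genes at or near 0 stand side by side, and 5 of them share 97.8% to 99.9% of windows with a nuclear copy.

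Among nuclear genes sharing was smaller. Any window was shared in 40 of 93, over 20% of windows in Ndufa13, Ndufb6, Atp5g2, Atp5o and Ndufaf2, and over 50% in Ndufaf2 alone, with other annotated genes or pseudogenes. Windows were matched on either strand. For Atp5g2 the gene sharing most windows is a pseudogene on chromosome 7. For Ndufa13, Ndufb6, Atp5o and Ndufaf2 it overlaps the gene at its own place. There 30%, 39%, 35.6% and 65.6% of exonic bases lie opposite another gene, so such windows need not be multiply aligned. Levels of these 5 genes are uncertain.

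Genes around the respiratory chain were counted from lists that do not follow the symbol rule. Over all genes tested, 35.1% were called higher and 34.8% lower, and 29% and 38.5% after the length and GC correction. The counts of each list below stand beside these shares. Complex IV assembly factors had 15 of 23 called higher and 2 lower, with a median log2 fold change of 0.57. Cmc2 (1.78 ± 0.16, adjusted p = 5.65e-07) and Cox17, which carries copper to complex IV (1.46 ± 0.21, adjusted p = 1.14e-05), rose most. Coa5, the most abundant of them by CPM, rose by 0.21 ± 0.07 (adjusted p = 0.0158), a call lost without control library 5. In the corrected fit 7 of these were called higher and 3 lower.

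Electron carriers and complex III assembly had 4 of 8 higher and 1 lower. Uqcc2 and Uqcc3, assembly factors of cytochrome b, rose by 1.23 ± 0.14 and 1.10 ± 0.12 (adjusted p = 3.67e-06 and 5.05e-06). Cyc1, the cytochrome c1 of complex III whose symbol the rule does not take, rose from 56.2 ± 4.97 to 75 ± 5.48 CPM (log2 0.44 ± 0.07, adjusted p = 0.000113). In the corrected fit 3 of these 8 were called higher and 1 lower.

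Complex I assembly factors outside the Ndufaf family had 4 of 8 higher and 1 lower. Tmem70 rose by 0.50 ± 0.06 (adjusted p = 0.000112) and Acad9 fell by 0.57 ± 0.11 on the log2 scale (adjusted p = 0.000225). Tmem126b, the most abundant by the mean CPM of all 10 libraries, rose by 0.29 ± 0.06 (adjusted p = 0.00302). After the correction none of the 8 was called higher and 3 were called lower, with Tmem70 at 0.05 and Tmem126b at 0.05. Complex II assembly had 3 of 4 higher, led by Sdhaf1 (0.92 ± 0.11, adjusted p = 8.98e-06) and Sdhaf4 (0.66 ± 0.09, adjusted p = 0.000104), with Sdhaf2 the most abundant (0.22 ± 0.06, adjusted p = 0.0135), and 2 of 4 after the correction. Complex V assembly also had 3 of 4 higher, led by Fmc1 (0.75 ± 0.13, adjusted p = 0.000372) and Atpaf2 (0.58 ± 0.10, adjusted p = 0.000163), with Tmem242 the most abundant (0.51 ± 0.08, adjusted p = 0.00024). After the correction 1 of the 4 was called higher and 2 lower, Tmem242 at -0.19 among them, and the median turned from 0.54 to -0.21.

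Import, channels and carriers had 13 of 15 called higher and 1 lower. Hspe1, the chaperonin cofactor, rose by 1.55 ± 0.22 (adjusted p = 2.09e-05), and Tomm22, a receptor of the outer-membrane import pore, by 1.02 ± 0.11 (adjusted p = 3.22e-06). Slc25a3, which brings phosphate for ATP synthesis, rose from 280 ± 17.3 to 479 ± 33.4 CPM (log2 0.79 ± 0.06, adjusted p = 1.19e-06). After the correction 8 were called higher and none lower.

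The citric acid cycle supplies the electrons. Of its 13 genes 4 were called higher and 2 lower, beside 35.1% and 34.8% of all genes tested. The median log2 fold change was 0.06, and the summed level was 1463 ± 86.8 CPM in controls and 1543 ± 51.9 CPM after IL-33. Mdh2, the mitochondrial malate dehydrogenase, rose by 0.60 ± 0.06 (adjusted p = 3.26e-06) and Cs, citrate synthase, by 0.53 ± 0.07 (adjusted p = 2.58e-05). Ogdh, a subunit of oxoglutarate dehydrogenase and the most abundant by CPM, fell from 318 ± 16 to 270 ± 16.1 CPM (adjusted p = 0.00965), a call lost in the corrected fit. After the correction 3 of the 13 were called higher and 5 lower, with a median of -0.08. Whether this list differs from the nuclear respiratory genes was not tested.

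Transcription and copying of mitochondrial DNA had 5 of 15 called higher, beside 35.1% of all genes tested, and 2 lower. After the correction 5 were called higher and 6 lower. Slirp, which stabilises mitochondrial messengers, rose by 1.03 ± 0.14 (adjusted p = 1.33e-05), and Polg2, the accessory subunit of the DNA polymerase, by 0.81 ± 0.15 (adjusted p = 0.000255). Polg, its catalytic subunit and the most abundant of the list, was not called at -0.14 ± 0.05 (adjusted p = 0.0684). Among 14 regulators of respiratory genes 3 were called higher and 4 lower, beside 35.1% and 34.8% of all genes tested. After the correction the counts were 5 and 5, beside 29% and 38.5%. Ppargc1b, a coactivator of respiratory genes, read 1.31, 2.09, 1.34, 1.14 and 2.01 CPM in controls and 8.85, 10, 10.4, 9.54 and 9.33 CPM after IL-33, a log2 fold change of 2.64 ± 0.17 (adjusted p = 4.93e-08) and 2.79 after the correction. Every IL-33 library was far above the controls. Ppara, a nuclear receptor of fatty acid oxidation, read 2.54, 5.72, 1.68, 5.25 and 4.12 CPM and then 1.35, 2, 0.384, 1.18 and 1.59 CPM, a log2 fold change of -1.51 ± 0.49 (adjusted p = 0.00291). Yy1, the most abundant of them by the mean of all 10 libraries, fell from 143 ± 6.21 to 110 ± 2.42 CPM (adjusted p = 4.94e-05) and was at -0.06 on the log2 scale after the correction. Other factors whose letters were searched were named after their values were seen. Gabpa fell from 76.6 ± 7.09 to 42.8 ± 5.61 CPM (adjusted p = 2.88e-06) and was at -1.08 after the correction. Nrf1 was not called, at -0.02 ± 0.06 (adjusted p = 0.848), but was called lower after it, at -0.31. Of the ERR genes, Esrra was higher at 0.66 ± 0.06 (adjusted p = 3.11e-06) and Esrrg lower at -1.17 ± 0.29 (adjusted p = 0.00266).

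Mitochondrial shape genes had 1 of 6 called higher, the fission adaptor Fis1 (1.07 ± 0.12, adjusted p = 2.95e-06), and 4 lower. Mfn1 of outer-membrane fusion fell by 0.48 ± 0.09 on the log2 scale (adjusted p = 0.000155). These counts were the same after the correction, but not the genes. Opa1 was then no longer called, at -0.02, and Mff, not called before, was lower at -0.47. Uncoupling and alternative electron entry had 2 of 9 higher and 5 lower, and 2 and 6 after the correction. Ucp3, a mitochondrial carrier best known in muscle, fell from 5.26 ± 1.57 to 1.41 ± 0.417 CPM (adjusted p = 1.65e-05) and Etfb, of the flavoprotein that feeds electrons from fatty acids, rose by 1.44 ± 0.16 (adjusted p = 1.92e-06). Ucp2, abundant in immune cells, rose from 747 ± 84.1 to 980 ± 89.7 CPM (log2 0.42 ± 0.09, adjusted p = 0.00229). The 7 brown adipocyte markers summed to 22.8 to 80.8 CPM in controls and 75.5 to 130 CPM after IL-33, with 2 of the 5 tested higher and 1 lower. Fabp4 and Pparg, which other cells also express, were the 2 higher, at 30.3 ± 18.2 and then 74.6 ± 19.4 CPM and at 10.3 ± 1.3 and then 19 ± 2.4 CPM, while Ucp1, which defines brown adipocytes, was at 0.0412 and 0.174 CPM.

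Cell-type markers moved widely in the same libraries. The 9 leukocyte markers were all called higher and summed to 508 to 861 CPM in controls and 1996 to 2435 CPM after IL-33. Macrophage markers summed to 504 to 744 and then 4142 to 5158 CPM, with 9 of 10 higher and 1 lower, eosinophil markers to 14.9 to 17.5 and then 66.5 to 85.1 CPM, with 6 of 7 higher and 1 lower, and the 8 markers of cycling cells, all higher, to 43.9 to 56.2 and then 546 to 824 CPM. Endothelial markers fell in 6 of 8 cases, from sums of 6047 to 6685 to sums of 2568 to 3513 CPM, and alveolar type 1 markers in 7 of 8, from 5056 to 5582 to 2234 to 2848 CPM. Alveolar type 2 markers fell in 6 and rose in 1 of 8 cases, and ciliated cell markers fell in 4 and rose in 1 of 8. The part of this change of cells in the levels of oxidative phosphorylation genes was not tested.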

How the data were processed

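PolyA-enriched RNA from lung tissue was made into libraries with a stranded kit, per the labels' protocols. The submitters' processing notes name FastQC 0.11.6, MultiQC 1.6, STAR 2.5.4b, HTSeq 0.9.1 and GRCm38. The sources used here do not state the annotation release, strand setting or read length. The deposited values are raw counts of reads per gene, with no normalization. Entries naming no gene were left out (10.4% to 13.7% of records in no gene, 0.862% to 0.945% ambiguous, 15% to 22.8% multiply aligned). Counted reads came to 7805175 to 13767118 per library, where 3 reads stand for 0.218 to 0.384 CPM. Libraries of a group differed beyond sampling noise (chi-square per degree of freedom 5.44 to 30).

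Members and lists were chosen with earlier results of these data known. Groups follow the treatment label. The count test was edgeR 4.0.16 (R 4.3.3) with TMM factors (0.969 to 1.03), filterByExpr and the quasi-likelihood test over 10 libraries, with no covariate. Its biological coefficient of variation was 0.136. Each SE comes from log2(CPM + 0.1) over 5 and 5 libraries. Gene models, transcript lengths (the principal transcript) and shared 75-base windows (50 and 100 beside them) come from GENCODE M21, and coordinates are GRCm38. The length and GC correction removes natural splines with 4 degrees of freedom per library through offsets. Alternatives were DESeq2 1.42.0 or its size factors, library size alone, scaling over nuclear genes, limma-voom (limma 3.58.1), other filters, the replicate number as a block, leaving out each library and a 0.01 threshold on adjusted p. Removing length alone, and TMM-scaled sums, were added after seeing the data, as were the motif letters. The fits were tested on simulated data. With a length trend of a size set in advance added there, most calls of the uncorrected fit fell on genes given no other change. Few calls of the corrected fit did. Python 3.11.15, numpy 2.4.6, pandas 2.3.3 and matplotlib 3.10.9 were used for annotation and plots.

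Named genes were all mitochondrial genes, Sdha to Sdhd, in each nuclear complex and among assembly factors the 3 largest called rises, 2 largest called falls and 2 most abundant per length, the isoforms with their partners, and of each pathway list the 2 largest called changes and the most abundant gene. Any other named gene was chosen after its values were seen. Of the listed pathway genes, Coa1 and Fastkd4 matched no symbol.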

Additional observations from a re-analysis of the deposited data

Results flagged for a closer look

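In 10 of 86 groups of 5 libraries, over the 43 tested genes that the naming rule covers, 1 library lay further from the rest than the Dixon gap limit allows, and chance alone flags about 1 in 20 groups. Control library 4 was lowest for Ndufa3 (35.6 CPM, others 45.1 to 48.1), Cox6c (87.4 CPM, others 101 to 106) and Atp5h (88 CPM, others 103 to 108). Control library 3 was lowest for mt-Nd6 (55.2 CPM, others 65.2 to 66.6) and highest for mt-Cytb (5798 CPM, others 4402 to 4789). Control library 1 was highest for Ndufaf8 (9.88 CPM, others 5.82 to 7), and control library 2 lowest for Cox4i2 (36.5 CPM, others 43.6 to 45.9). Among IL-33 libraries, library 2 was lowest for mt-Nd2 (2003 CPM, others 2389 to 2458), library 3 lowest for Atp5b (540 CPM, others 594 to 615) and library 5 highest for Sdha (220 CPM, others 196 to 203).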

How the results depend on the processing

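Removing the length and GC trend changed most. Nuclear genes called higher went from 80 to 45 (49 with length alone removed) and lower from 4 to 14 (14), and their median log2 fold change from 0.93 to 0.19 (0.21). Complex I had 20 (21) higher and 3 (3) lower, complex III 4 (4) and 1 (1), complex V 7 (8) and 4 (4), and assembly factors 1 (3) higher. Mitochondrial genes had 0 (0) higher and 5 (5) lower, and their median turned from 0.23 to -0.50 (-0.40). Of the 98 oxidative phosphorylation genes tested, 22 (23) had a log2 fold change that turned, 10 (10) of them called after the correction. Among the named genes, pathway genes included, those that turned were mt-Nd1 -0.50 (-0.40), mt-Nd4 -0.17 (-0.08), mt-Cytb -0.46 (-0.36), Ndufa7 -0.10 (-0.11), Atp5b -0.08 (-0.09), Cox6b2 -0.80 (-0.81), Ndufa4 -0.14 (-0.06), Ndufs1 -0.08 (-0.04), Ndufv1 -0.19 (-0.21), Uqcrc2 -0.11 (-0.05), Ndufaf6 -0.24 (-0.23), Sdhaf4 -0.25 (-0.19), Fmc1 -0.24 (-0.24), Tmem242 -0.19 (-0.19) and, upward, Polg 0.22 (0.19). The cause was not tested. At an adjusted p of 0.01, nuclear genes called lower were 2, all of complex IV, and mitochondrial genes called higher 2 and lower 1. With no low-count filter 2 mitochondrial genes were called higher. Leaving out 1 library gave 2 to 4 mitochondrial genes higher and 1 to 2 lower. Over 83 of the named genes and 21 settings, 1626 values kept direction and side of the threshold, 76 lost the call, 11 gained one and 30 turned. Outside the 2 length corrections and the 0.01 threshold, 83 to 90 of 90 calls of either genome were kept. Replicate numbers did not pair the libraries: same-numbered deviations correlated by -0.04 to 0.29, over 0.1 in 3 of 5 pairs, and 1 library correlated best with its own number. With the number as a block, 89 of 90 calls were kept. Nuclear sums under library size alone are the reported ones. Below 3 reads, 0.218 to 0.384 CPM in 1 library, no level could be read, and multiply aligned reads are in no mitochondrial count.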
